A study of Homo sapiens with 18 samples.

Results

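The 10 genes followed here control the passage of a cell from G1 into S phase. They are the D-type cyclin genes CCND1 and CCND3, the E-type cyclin genes CCNE1 and CCNE2, the CDK inhibitor genes CDKN1B, CDKN2B, CDKN2C, and CDKN2D, and the transcription factor genes E2F1 and E2F2. The genes were taken by name from a list of G1 control genes, without a cut on their measured values. The list itself was chosen with earlier results of these data known. They are 10 of the 22034 genes in the count table, and all 10 passed the filter on low counts, as did 14164 genes in total. RNA-seq was run on 18 samples of VCaP, a prostate cancer cell line of epithelial origin that expresses ERG from a TMPRSS2:ERG fusion, in 6 groups of 3 samples. In one experiment, VCaP-shERG cells, which carry a hairpin against ERG in a doxycycline-inducible (Tet-on) vector, received vehicle (labelled DMSO) or doxycycline (Dox) at 1 µg/mL for a time that the labels do not give. In the other, parental VCaP cells received DMSO or 50 µM PBITE-1, a small molecule that the study describes as a binder of the PNT domain of ERG, for 4, 8, or 12 h. All times of PBITE-1 were set against the same 3 DMSO samples, for which the labels state no time. Dox was given only to cells with the ERG hairpin, so an effect of Dox itself cannot be told apart from that of the hairpin. The hairpin and PBITE-1 were also used in different lines.

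In G1, growth signals raise the D-type cyclins, which activate CDK4 and CDK6 to begin the phosphorylation of the retinoblastoma protein RB. Phosphorylated RB releases E2F factors, which switch on genes for DNA replication and also CCNE1, CCNE2, and their own genes. Cyclin E with CDK2 then completes the phosphorylation of RB. The INK4 inhibitors, p15 (CDKN2B), p18 (CDKN2C), and p19 (CDKN2D), block CDK4 and CDK6, while p27 (CDKN1B) binds cyclin-CDK2 complexes. Much of this control acts on proteins, through phosphorylation and degradation, and only RNA was measured here.

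The libraries held 11308600 to 17483423 counts, so that 3 counts of a gene corresponded to 0.179 to 0.273 CPM (counts scaled to library size). CPM in the text are scaled by the TMM factors of all 18 samples. ERG, the gene targeted by the hairpin, was at 432, 421, and 408 CPM in the vehicle samples and at 155, 156, and 149 CPM after Dox. It was at 295, 304, and 312 CPM in DMSO and between 90.4 and 104 CPM in the 8 and 12 h samples of PBITE-1. All 8 genes of a list of prostate luminal epithelial markers were detected, with a summed level of 6743 to 6844 CPM in vehicle, 4141 to 4194 after Dox, 5453 to 5588 in DMSO, and 3286 to 3834 at 12 h of PBITE-1. Markers of fibroblasts, leukocytes, and endothelium summed to at most 9.56, 2.29, and 2.49 CPM in any sample. COL1A2, CD3E, and CDH5 had at most 1 count, while COL1A1 reached 110 counts. The fibroblast sum was 1.33 to 2.18 CPM in vehicle and 7.13 to 8.26 after Dox. It was 2.18 to 3.11 CPM in DMSO and 5.51 to 9.56 at 12 h of PBITE-1. After Dox and at 12 h, the endothelial sum was also higher than in the control, and the leukocyte sums overlapped with it. The luminal markers' sum was lower under both treatments, and its part in the results was not tested. In bulk RNA, fewer cells in a given phase of the cycle and less RNA of a gene in each cell cannot be told apart.

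After Dox induction of the ERG hairpin, 7 of the 10 genes were lower than in vehicle and 3 were higher (limma-voom, Benjamini-Hochberg adjusted p under 0.05 over the 14164 genes tested, the rule for a call throughout). With this rule, 35.3% of all genes tested were lower and 35.1% were higher, so that most genes tested were called. On library size only and with upper-quartile scaling, 4 of the 10 were lower and 3 were higher. When a log2 fold change beyond 1 was also required, CCNE2, E2F1, and E2F2 were lower and CDKN2B was higher, against 7.19% and 12.0% of all genes. After 12 h of PBITE-1, 4 of the 10 were lower and 5 were higher than in DMSO (39.4% and 39.4% of all genes). Beyond a log2 fold change of 1, the lower ones were CCNE2, E2F1, and E2F2 and the higher ones were CCND3, CDKN1B, CDKN2B, and CDKN2D (15.4% and 17.1% of all genes). The median log2 fold change of the 10 was -0.44 after Dox and 0.19 at 12 h of PBITE-1, while that of all genes was 0.02 and -0.01.

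At the earlier times of PBITE-1, more of the 10 genes were higher than lower. At 4 h, 3 genes were lower and 6 were higher (24.7% and 26.4% of all genes), with CDKN2B alone beyond a log2 fold change of 1 (2.99% of all genes lower and 7.28% higher by that rule). At 8 h, 3 were lower and 7 were higher (37.0% and 35.9%), and CCND3, CDKN1B, CDKN2B, and CDKN2D were beyond a log2 fold change of 1, all higher (8.86% of all genes lower and 14.9% higher). The median of the 10 was 0.56 at 4 h and 0.88 at 8 h. Each of these comparisons uses the same 3 DMSO samples.

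**Figure D1:**
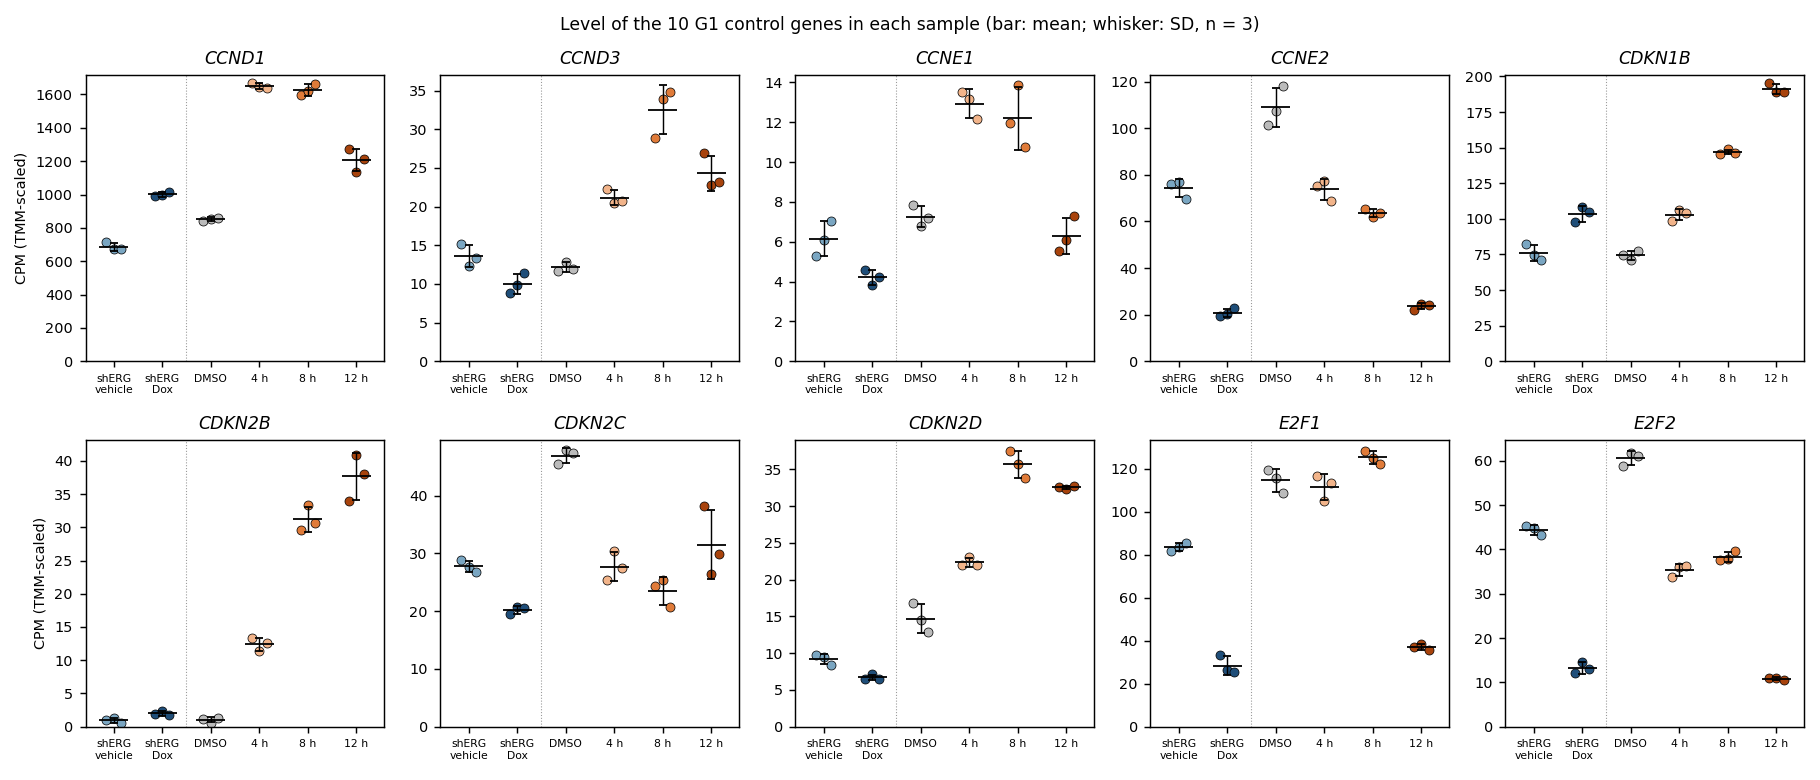
TMM-scaled CPM of each of the 10 genes (y axis, linear and from 0, with its own scale for each gene) in the 18 samples, by group (x axis). Points are samples, bars are means, and whiskers are SD (n = 3); E2F1, E2F2, and CCNE2 lie low after Dox and at 12 h of PBITE-1, and CDKN2B and CDKN1B climb over the 3 times.

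The D-type cyclins carry the growth signal to CDK4 and CDK6, and the genes of cyclin D1 and D3 had opposite directions after Dox. CCND1 (chromosome 11, 69641087 to 69654474, plus strand, GENCODE 29 on GRCh38, as for all positions here) encodes cyclin D1 and had the highest level per kb of exon of the 10 genes in DMSO. It was at 714, 673, and 673 CPM in vehicle and at 990.0, 997, and 1016 CPM after Dox. Every Dox sample was above every vehicle sample, and the log2 fold change was 0.55 (SE 0.024), limma adjusted p = 6.58e-17. With PBITE-1 it went from 840.0, 856, and 859.6 CPM in DMSO to 1669, 1643, and 1639.5 CPM at 4 h, 1595, 1619, and 1663 CPM at 8 h, and 1270.1, 1137, and 1211 CPM at 12 h. Thus CCND1 was 1.97-fold its DMSO level at 4 h, held that level to 8 h with overlapping samples, and fell between 8 and 12 h with a log2 change of -0.43, staying above DMSO in all 3 samples (0.54, SE 0.034). CCND1 shares 497 exon bases with LTO1 on the opposite strand, and since the use of strand in the counting was not stated, reads there are uncertain. LTO1 had log2 fold changes of -0.43 after Dox and -0.38 at 4 h, opposite in sign to those of CCND1. At 8 and 12 h its values were 0.072 and 0.087, of the same sign as those of CCND1 and not called. The level of LTO1 was at most 22.0 CPM in DMSO, and the part of shared reads was not tested.

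CCND3 encodes cyclin D3 (chromosome 6, 41934933 to 42050357, minus strand). In vehicle it was at 15.1, 12.3, and 13.3 CPM and after Dox at 8.79, 9.86, and 11.4 CPM. The groups did not overlap and the samples after Dox were lower, with a log2 change of -0.43 (SE 0.12), limma adjusted p = 0.00314. On library size only the value was -0.17 (adjusted p = 0.223) and with upper-quartile scaling -0.26 (adjusted p = 0.0545), scalings under which the median of all genes moved to 0.28 and 0.18. PBITE-1 took CCND3 the other way, from 11.6, 12.9, and 12.0 CPM in DMSO to 22.2, 20.5, and 20.7 CPM at 4 h, 28.9, 33.9, and 34.8 CPM at 8 h, and 26.9, 22.8, and 23.2 CPM at 12 h. All 9 treated samples were above the DMSO samples, the 8 h samples were the highest, and the log2 fold changes against DMSO were 0.81 (SE 0.11), 1.43 (SE 0.10), and 1.03 (SE 0.11).

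The E-type cyclins activate CDK2 at the end of G1. CCNE2, which encodes cyclin E2 (chromosome 8, 94879770 to 94896678, minus strand), was at 75.9, 76.9, and 69.8 CPM in vehicle and 19.5, 20.1, and 22.8 CPM after Dox. This was a 3.55-fold fall, to at most 22.8 CPM in any Dox sample, with a log2 change of -1.83 (SE 0.075), limma adjusted p = 1.42e-17. In parental cells it was at 102, 107, and 118 CPM in DMSO, 75.1, 77.5, and 68.7 CPM at 4 h, 65.2, 62.1, and 63.7 CPM at 8 h, and 22.1, 24.7, and 24.1 CPM at 12 h. The groups fell in steps without overlap, with log2 changes of -0.54 to 4 h, -0.20 from 4 to 8 h (limma adjusted p = 0.00877), and -1.42 from 8 to 12 h. The small step from 4 to 8 h was not called without the second sample at 4 h (-0.16, adjusted p = 0.065). At 12 h CCNE2 was 4.47-fold below DMSO (-2.16, SE 0.076, limma adjusted p = 1.44e-25). CCNE2 shares 1629 of its 4397 exon bases with INTS8 on the opposite strand, and the use of strand in the counting was not stated. INTS8, a subunit gene of the Integrator complex, had log2 fold changes of -0.10 after Dox and 0.47 at 12 h. Its mean level was 110 CPM after Dox and 108 CPM at 12 h, where CCNE2 had means of 20.8 and 23.6 CPM. The part of shared reads in the levels and fold changes of CCNE2 was not tested.

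CCNE1, which encodes cyclin E1 (chromosome 19, 29811898 to 29824308, plus strand), was the lower of the pair per kb of exon in DMSO. It was at 5.30, 6.10, and 7.05 CPM in vehicle and 4.60, 3.84, and 4.22 CPM after Dox, groups that did not overlap (log2 fold change -0.53, SE 0.18, limma adjusted p = 0.0102). This call was lost without the third vehicle sample (-0.43, adjusted p = 0.0525), on library size only (-0.27, adjusted p = 0.178), and with upper-quartile scaling (-0.37, adjusted p = 0.067). In parental cells CCNE1 was at 7.82, 6.79, and 7.18 CPM in DMSO, 13.5, 13.2, and 12.1 CPM at 4 h, 11.9, 13.9, and 10.7 CPM at 8 h, and 5.52, 6.08, and 7.30 CPM at 12 h. It therefore rose at 4 h (0.85, SE 0.13), was still high at 8 h (0.79, SE 0.13), and fell by 1.93-fold from 8 to 12 h (limma adjusted p = 3.73e-07). At 12 h its samples overlapped those of DMSO, and the log2 difference of -0.16 had a 95% interval of -0.47 to 0.15. The E-type cyclin genes thus had opposite directions against DMSO at 4 and 8 h, while both were lower after Dox.

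CDKN1B encodes p27, an inhibitor of cyclin-CDK2 complexes (chromosome 12, 12715058 to 12722371, plus strand), and was higher in every comparison with a control. It was at 82.1, 74.7, and 71.5 CPM in vehicle and 97.5, 108, and 104 CPM after Dox (log2 fold change 0.45, SE 0.053, limma adjusted p = 2.65e-08; 0.72 on library size only). In parental cells it was at 75.0, 71.1, and 77.2 CPM in DMSO, 98.6, 106, and 104 CPM at 4 h, 146, 149, and 146 CPM at 8 h, and 195, 189, and 189 CPM at 12 h. No sample of one time overlapped with another time, and each step was called, with log2 values of 0.49, 0.53, and 0.38. At 12 h the level was 2.64-fold that of DMSO (1.40, SE 0.047, limma adjusted p = 2.81e-26).

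Of the INK4 genes, CDKN2B moved most. It encodes p15, an inhibitor of CDK4 and CDK6, and lies at chromosome 9, 22002903 to 22009363, minus strand. In control cells it rested on few reads, with 12, 20, and 8 counts in the vehicle samples and 16, 9, and 22 counts in DMSO. PBITE-1 brought it from 1.11, 0.577, and 1.32 CPM in DMSO to 13.3, 11.3, and 12.5 CPM at 4 h, 29.6, 33.3, and 30.6 CPM at 8 h, and 34.0, 41.0, and 38.0 CPM at 12 h. All 9 treated samples were at or above 11.3 CPM and all DMSO samples at or below 1.32 CPM, and the log2 fold change was 3.68 (SE 0.30) at 4 h, 5.02 (SE 0.30) at 8 h, and 5.31 (SE 0.29) at 12 h. The last corresponded to 39.6-fold (limma adjusted p = 3.67e-19), with its size resting on the few counts in DMSO. After Dox the counts were 27, 33, and 24, or 1.83, 2.39, and 1.75 CPM against 0.936, 1.27, and 0.564 CPM in vehicle. The log2 fold change was 1.13 (SE 0.35) with a limma adjusted p of 0.00619, and without the third vehicle sample it was 0.82 and not called (adjusted p = 0.0538). CDKN2B lies within the span of the antisense gene CDKN2B-AS1 but shares no exon base with it.

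CDKN2D and CDKN2C encode p19 and p18, which block the same kinases, and moved in opposite directions with PBITE-1. CDKN2D (chromosome 19, 10566462 to 10569059, minus strand) was at 9.67, 9.46, and 8.39 CPM in vehicle and 6.49, 7.10, and 6.47 CPM after Dox, without overlap (log2 fold change -0.44, SE 0.14, limma adjusted p = 0.00596). On library size only this difference was -0.18 and not called (adjusted p = 0.234), and with upper-quartile scaling it was -0.28 (adjusted p = 0.0692). In parental cells it was at 16.8, 14.5, and 12.8 CPM in DMSO, 22.0, 23.0, and 22.0 CPM at 4 h, 37.4, 35.7, and 33.9 CPM at 8 h, and 32.6, 32.3, and 32.7 CPM at 12 h. It rose against DMSO at each time, with log2 fold changes of 0.64 (SE 0.10) at 4 h, 1.34 (SE 0.089) at 8 h, and 1.20 (SE 0.09) at 12 h. The difference from 8 to 12 h, -0.13, was not called (limma adjusted p = 0.118).

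CDKN2C (chromosome 1, 50960745 to 50974633, plus strand) was lower in all 4 comparisons with a control. Its values were 28.8, 27.7, and 26.8 CPM in vehicle and 19.5, 20.7, and 20.5 CPM after Dox. With PBITE-1 they went from 45.4, 47.9, and 47.4 CPM in DMSO to 25.4, 30.4, and 27.4 CPM at 4 h, 24.3, 25.4, and 20.7 CPM at 8 h, and 38.2, 26.5, and 29.9 CPM at 12 h. No treated sample overlapped with its control, and the log2 fold changes were -0.45 (SE 0.079) after Dox (-0.28 with upper-quartile scaling and -0.18 on library size only) and -0.74 (SE 0.09), -0.95 (SE 0.092), and -0.56 (SE 0.085) with time. The first sample at 12 h was apart from the other two, and the rise from 8 to 12 h was 0.39 (limma adjusted p = 0.000835) and, without that sample, 0.25 (limma adjusted p = 0.0207). Thus at 12 h of PBITE-1, 3 of the 4 inhibitor genes were higher and CDKN2C was lower (39.4% and 39.4% of all genes). After Dox 2 were higher and 2 were lower (35.1% and 35.3% of all genes). Of these, the call of CDKN2D was lost with other scalings and that of CDKN2B without the third vehicle sample.

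**Figure D2:**
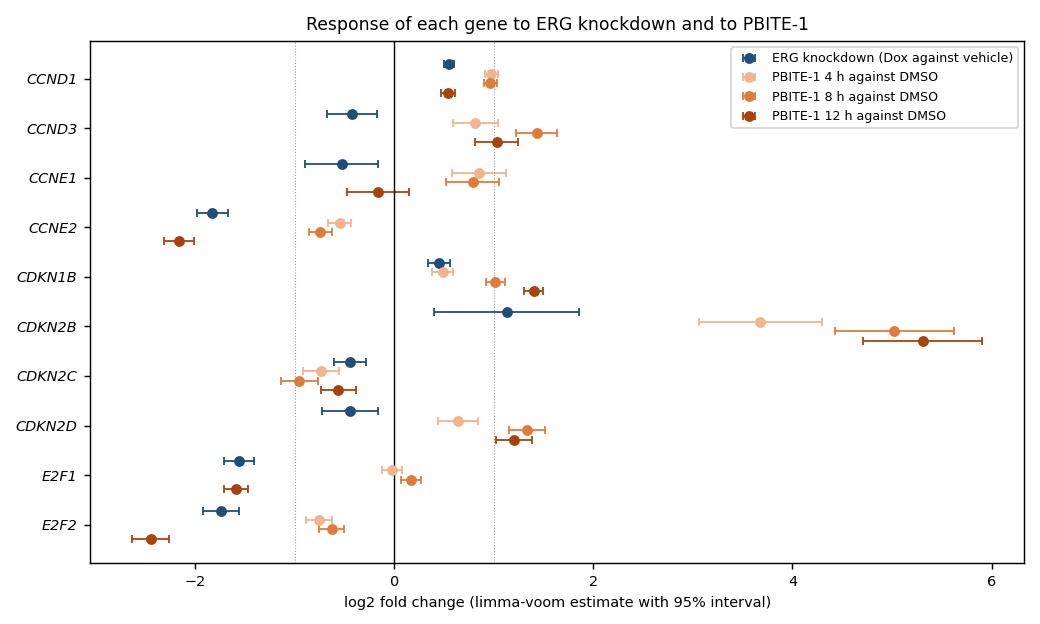
Log2 fold change of each of the 10 genes (x axis, limma-voom) after Dox against vehicle and after 4, 8, and 12 h of PBITE-1 against DMSO. Points are estimates, bars are 95% intervals, and dotted lines mark a log2 fold change of 1 in either direction; CCND3 and CDKN2D are left of 0 after Dox and right of it with PBITE-1, and CDKN2B reaches 5.31 at 12 h.

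E2F1 and E2F2 encode activator E2F factors, and E2F sites in the promoters of E2F genes are known from textbooks. Because these 2 genes were lower beyond a log2 fold change of 1 after Dox and at 12 h, their promoters are shown, from RefSeq on GRCh38.p14, from 250 bases before to 50 bases after the annotated start and on the strand of the gene. Capitals mark the words found. The words searched, on both strands, were TTTGGCGC, TTTCGCGC, TTTCCCGC, and TTTGCCGC for E2F, CCGGAAG for ETS factors, the family of ERG, TGANTCA for AP-1, and CACGTG for the E-box.
E2F1 promoter, chr20:33686336-33686635, minus strand: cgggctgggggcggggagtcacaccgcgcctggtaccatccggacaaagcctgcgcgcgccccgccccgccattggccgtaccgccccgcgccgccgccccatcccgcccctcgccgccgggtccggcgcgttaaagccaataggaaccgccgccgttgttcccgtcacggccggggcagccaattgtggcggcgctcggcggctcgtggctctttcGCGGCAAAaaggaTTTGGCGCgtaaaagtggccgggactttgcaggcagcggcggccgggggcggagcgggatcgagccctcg
E2F2 promoter, chr1:23531184-23531483, minus strand: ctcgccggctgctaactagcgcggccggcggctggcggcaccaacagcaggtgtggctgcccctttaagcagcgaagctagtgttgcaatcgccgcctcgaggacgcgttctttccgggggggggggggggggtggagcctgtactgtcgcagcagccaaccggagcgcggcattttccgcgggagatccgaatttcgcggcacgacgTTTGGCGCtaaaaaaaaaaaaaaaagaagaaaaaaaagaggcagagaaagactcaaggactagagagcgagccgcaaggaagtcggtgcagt

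The E2F1 window held 2 E2F words that did not overlap, TTTGCCGC on the other strand (printed as GCGGCAAA) and TTTGGCGC, which begin 33 and 20 bases before the start site. The E2F2 window held 1, TTTGGCGC, from 42 bases before the start. Of 35116 RefSeq promoter windows of the same length, 0.607% held TTTGCCGC and 0.652% held TTTGGCGC. Any of the 4 E2F words was present in 3.31% of them. Of the 10 genes, 8 had an entry (not CCND1 and CCNE2), and no window of the other 6 held one of the 4 words. A CCGGAAG was found in a window of CCND3 (10.3% of all windows hold one), a CACGTG in 2 windows of CDKN2C (7.26%), and no TGANTCA in any window of the 8 genes (7.71%). A match describes letters and not binding.

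E2F1 (chromosome 20, 33675683 to 33686404, minus strand) was at 81.8, 83.7, and 85.3 CPM in vehicle and 33.3, 26.3, and 25.4 CPM after Dox, 2.94-fold lower (log2 fold change -1.56, SE 0.074, limma adjusted p = 3.28e-16). In parental cells it was at 119, 116, and 109 CPM in DMSO, 116, 105, and 113 CPM at 4 h, 128, 125, and 122 CPM at 8 h, and 37.1, 38.3, and 35.4 CPM at 12 h. The samples at 4 h overlapped those of DMSO, with a log2 difference of -0.018 and an interval of -0.12 to 0.083. At 8 h E2F1 was slightly above DMSO (0.17, SE 0.048, limma adjusted p = 0.00212), a call that was lost on library size only (0.10, adjusted p = 0.0537). It then fell 3.38-fold in the 4 h that followed (-1.76, SE 0.062, limma adjusted p = 1.78e-24), and at 12 h it was 3.01-fold below DMSO (-1.59, SE 0.062).

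E2F2 (chromosome 1, 23506430 to 23531220, minus strand) was at 45.2, 44.8, and 43.2 CPM in vehicle and 12.0, 14.6, and 13.0 CPM after Dox (-1.74, SE 0.088, limma adjusted p = 1.33e-15). It was at 58.8, 61.8, and 61.1 CPM in DMSO and 33.9, 36.0, and 36.3 CPM at 4 h, a fall (-0.75, SE 0.064) at a time when no change in E2F1 was called. At 8 h the values were 37.6, 37.9, and 39.7 CPM, and the step from 4 to 8 h, 0.12, was not called (limma adjusted p = 0.136). The samples at 12 h, 11.0, 11.0, and 10.5 CPM, were the lowest of all 18, and the fall against DMSO was 5.43-fold (-2.44, SE 0.092, limma adjusted p = 1.27e-24).

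Followed from one time to the next, CCNE2, E2F1, and E2F2 had their largest fall between 8 and 12 h. From 4 to 8 h, 1 of the 10 was lower (CCNE2) and 5 were higher (26.3% and 26.7% of all genes), with CDKN2B beyond a log2 fold change of 1 (2.22% of all genes lower and 4.43% higher by that rule). From 8 to 12 h, 6 were lower and 3 were higher (32.5% and 27.8% of all genes). CCNE2, E2F1, and E2F2 were lower beyond a log2 fold change of 1 in that step and none of the 10 was higher (6.59% and 3.48% of all genes). CCND3 and E2F1 rose from 4 to 8 h and fell from 8 to 12 h, as did 7.59% of all genes tested.

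Paired genes of a family were also compared within each sample, as a log2 ratio of their counts, which needs no scaling between samples. Because the genes differ in length, only the change of a ratio is read, not its level. The log2 ratio of CCNE1 to CCNE2 was -3.69, -3.98, and -4.04 in DMSO and -1.99, -2.02, and -1.72 at 12 h of PBITE-1, and -3.83, -3.65, and -3.30 in vehicle and -2.08, -2.38, and -2.42 after Dox. CCNE1 therefore went from 0.0669 of the CCNE2 counts in DMSO to 0.266 at 12 h, and from 0.0829 to 0.204 with Dox. The difference was 1.30 (SE 0.189) after Dox and 1.39 (SE 0.108), 1.51 (SE 0.160), and 1.99 (SE 0.143) over the 3 times. For CDKN2C to CDKN2D, the ratio was 1.44, 1.72, and 1.89 in DMSO and -0.62, -0.49, and -0.71 at 8 h, so that CDKN2C went from 3.20 times the CDKN2D counts to 0.656 times. After Dox this ratio, 1.58, 1.54, and 1.66, overlapped that of vehicle, 1.57, 1.55, and 1.67 (difference -0.0025, SE 0.0517, exact permutation p = 0.9).

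For E2F1 to E2F2 the ratio was 1.02, 0.91, and 0.83 in DMSO and 1.75, 1.80, and 1.75 at 12 h, with differences of 0.74 (SE 0.0889), 0.79 (SE 0.0704), and 0.85 (SE 0.0582). After Dox it was 1.47, 0.84, and 0.96, overlapping with 0.85, 0.90, and 0.98 in vehicle (difference 0.18, SE 0.195, exact permutation p = 0.7), the first Dox sample being apart from the others. The ratio of CCND1 to CCND3 was higher by 0.99 (SE 0.115) after Dox and by 0.16 (SE 0.0487) at 4 h of PBITE-1, and the difference turned to -0.48 (SE 0.0803) at 8 h and -0.49 (SE 0.0571) at 12 h. In 14 of the 16 comparisons of a ratio the groups did not overlap, each with a two-sided exact permutation p of 0.1, the smallest that 3 samples against 3 allow, and 0.114 after adjustment over the 16. A p under 0.05 was thus out of reach for any of them. Ratios of other pairs of genes were not counted, so the lack of overlap is not read as a trait of these pairs.

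**Figure D3:**
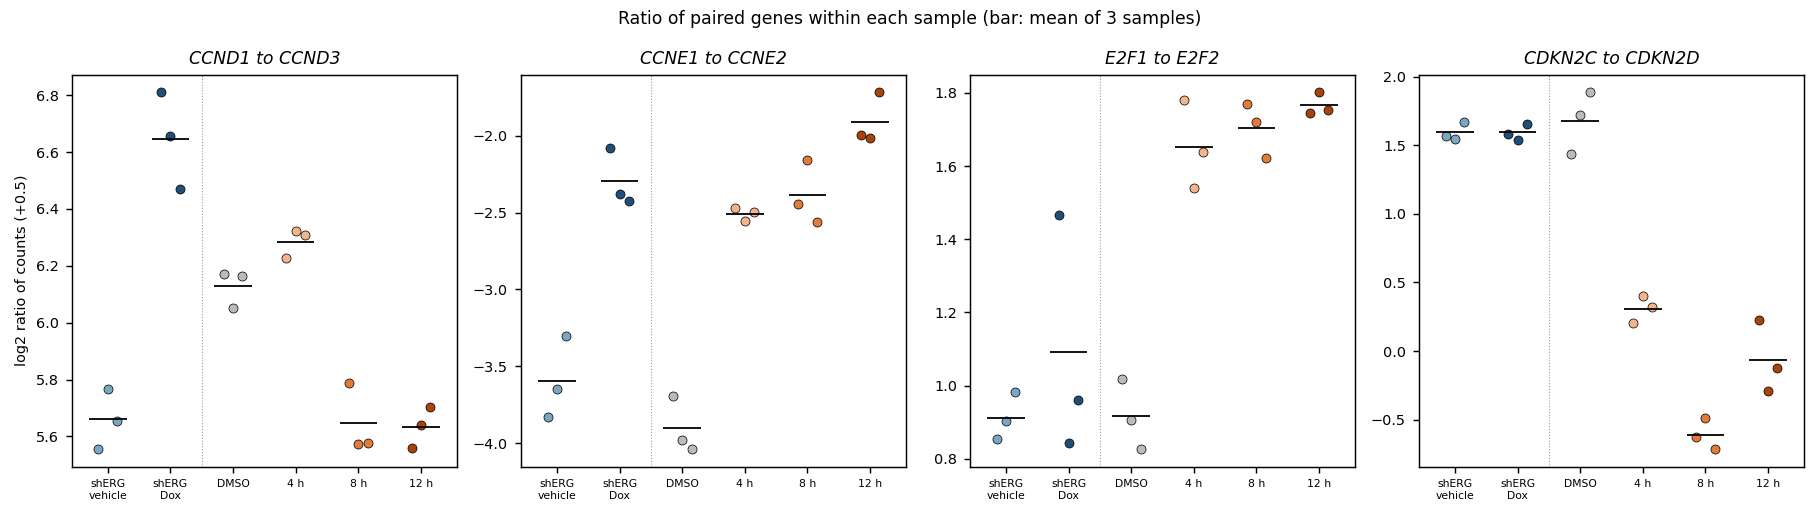
Log2 ratio of the counts of paired genes (y axis, with 0.5 added to each count and its own scale for each pair) in each of the 18 samples, by group (x axis). Points are samples and bars are means of 3 samples; CDKN2C to CDKN2D stays between 1.54 and 1.67 in both shERG groups and is at most 0.40 with PBITE-1, while CCNE1 to CCNE2 rises under both treatments.

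Dox and 12 h of PBITE-1 were next set side by side, each against its own control. CCNE2, CDKN2C, E2F1, and E2F2 were lower in both (4 of 10, against 22.4% of all genes), and CCND1, CDKN1B, and CDKN2B were higher in both (3 of 10, against 18.5%). CCND3 and CDKN2D were lower after Dox and higher at 12 h (2 of 10, against 7.86%), and none of the 10 was higher after Dox and lower at 12 h (8.69% of all genes). The difference between the responses was tested by an interaction term over the 18 samples and was called for 6 genes. It was negative, meaning lower with PBITE-1 relative to its control than with Dox, for CCNE2 (-0.38, SE 0.11, limma adjusted p = 0.00261) and E2F2 (-0.74, SE 0.12, adjusted p = 1.26e-06). It was positive for CDKN2B (4.14, SE 0.48), CDKN2D (1.61, SE 0.17), CCND3 (1.42, SE 0.17), and CDKN1B (0.91, SE 0.07). Over all genes, 35.1% were lower and 33.3% higher by this test, and 15.9% and 13.0% beyond a log2 difference of 1, where CCND3, CDKN2B, and CDKN2D were among the higher and no gene of the 10 among the lower. For E2F1, whose difference was -0.072 with an interval of -0.27 to 0.12, and for CCND1, with -0.055 and -0.14 to 0.035, no difference was called. On library size only, 5 of the 10 were lower and 4 higher by this test, and with upper-quartile scaling 4 and 4. CDKN2C (-0.15) was called without the first sample at 12 h (-0.29, limma adjusted p = 0.0279). On library size only the difference for CCNE2 was -0.64. The line and the treatment differ together between these comparisons and cannot be told apart, and whether the times were equal is not known, since the labels give none for Dox.

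Vehicle-treated VCaP-shERG cells were also compared with DMSO-treated parental cells. Relative to parental cells, 6 of the 10 were lower and none was higher (23.3% and 23.3% of all genes; 5.0% and 1.19% beyond a log2 fold change of 1, where none of the 10 lay). The lower ones were CDKN2C (-0.76), CDKN2D (-0.67), CCNE2 (-0.56), E2F1 (-0.45), E2F2 (-0.45), and CCND1 (-0.32). For CDKN1B the log2 difference was 0.023, with an interval of -0.085 to 0.13. The controls of the 2 experiments thus did not start from the same level in these 6 genes.

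Ordered by mean level over the 6 groups, 15 of the 50 pairs of neighbouring groups overlapped in their samples. This count was not made over all genes, so it is not read as a trait of these genes. E2F2 and CDKN2D had no overlapping neighbours. For E2F2 the order from the highest was DMSO, vehicle, 8 h, 4 h, Dox, and 12 h, and for CDKN2D it was 8 h, 12 h, 4 h, DMSO, vehicle, and Dox. CDKN2C had the most overlap: below DMSO, the groups at 12 h, vehicle, 4 h, 8 h, and Dox each overlapped with the next. The overlapping neighbours of the other genes were 4 and 8 h for CCND1, vehicle and DMSO for CCND3, CDKN1B, and CDKN2B, Dox and 4 h for CDKN1B, DMSO and 4 h for E2F1, vehicle and 4 h as well as 12 h and Dox for CCNE2, and 4 and 8 h as well as DMSO, 12 h, and vehicle in sequence for CCNE1. To compare genes with each other, levels were divided by the length of the merged exons. In DMSO, CCND1 was at 176 ± 2.15 CPM per kb, E2F1 at 45.8 ± 2.19, CDKN1B at 26.5 ± 1.09, and CCNE2 at 24.8 ± 1.91 (SD, n = 3 each). CDKN2C, E2F2, and CDKN2D were at 14.1 ± 0.400, 11.1 ± 0.288, and 9.78 ± 1.32 CPM per kb, and CCNE1, CCND3, and CDKN2B at 2.85 ± 0.204, 2.10 ± 0.112, and 0.246 ± 0.0939 CPM per kb.

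The genes around this control point were followed with lists of the other members of the pathway. Of 12 E2F target genes, 12 were lower after Dox, with a median log2 fold change of -1.58. They ranged from UHRF1 (-1.97), a reader of hemimethylated DNA, to RRM1 (-0.99), a subunit of ribonucleotide reductase. At 4 h of PBITE-1, 5 of the 12 were lower and 3 were higher (24.7% and 26.4% of all genes), and at 8 h 7 were lower and 4 were higher (37.0% and 35.9%) with a median of -0.22. At 12 h, 10 were lower and none was higher (median -1.12), again from UHRF1 (-3.54) to CDT1 (-0.49), a licensing factor of replication origins, and CCNA2 and CDC6 were not called. Over all genes tested, 35.3% were lower after Dox and 39.4% at 12 h, with medians of 0.02 and -0.01. From 8 to 12 h, 11 of the 12 fell (32.5% of all genes were lower), the step in which E2F1 and E2F2 fell as well. Of 8 other E2F and DP factor genes, 7 were lower after Dox (median -0.93) and 7 at 12 h (median -0.87). Among them were E2F8 (-1.64 after Dox), a repressor E2F, and E2F3 (-2.43 at 12 h), an activator, while TFDP2, a dimer partner, was higher in both (0.30 and 0.37).

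Of the 7 genes of G1 kinases and their activators, 5 were lower and none was higher after Dox (35.3% and 35.1% of all genes), and 4 were lower and 2 higher at 12 h of PBITE-1 (39.4% and 39.4%), with medians of -1.20 and -0.22. The median after Dox is the value of CDK6, which was not called. CDK6 had only 3 to 4 counts per vehicle sample and 1 to 2 after Dox. CDC25A, the phosphatase that activates CDK2, fell in both (-1.52 and -2.27), and CDK4, the partner of the D-type cyclins, fell by 2.33-fold and 3.46-fold. CDK7, the catalytic subunit of the CDK-activating kinase, was lower after Dox (-0.36) and higher at 12 h (1.17). Among the 3 pocket protein genes, RBL1 fell in both (-1.15 and -1.29) and RB1 rose in both (0.36 and 0.39). RBL2, which encodes the p130 protein of quiescent cells, rose after Dox (0.57) and fell at 12 h (-0.42).

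Of the 4 other G1 cyclin and inhibitor genes, CDKN1C and CDKN1A, the genes of p57 and p21 and relatives of CDKN1B, were higher in both. CDKN1A was at 11.5 ± 0.456 CPM in vehicle and 19.2 ± 0.194 CPM after Dox, and at 49.5 ± 3.17 CPM in DMSO and 396 ± 25.6 CPM at 12 h (SD, n = 3 each). CDKN1C went from 4 to 11 counts per vehicle sample to 52 to 79 after Dox, and from 1 to 9 counts in DMSO to 824 to 977 at 12 h. CDKN2A, the INK4 gene of p16, was not called after Dox and fell at 12 h (-1.55). CCND2, the third D-type cyclin gene, had 0 counts in all 6 VCaP-shERG samples and 5 to 10 counts in the DMSO samples. With PBITE-1 it was not called at 4 h. It was called higher at 8 h (2.38, SE 0.44, 27 to 41 counts) and at 12 h (1.39, SE 0.48, 10 to 27 counts). Both sizes rest on the few counts in DMSO. Of the 4 genes, 2 were higher and none was lower after Dox (35.1% and 35.3% of all genes). At 12 h, 3 were higher and 1 was lower (39.4% and 39.4%).

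**Figure D4:**
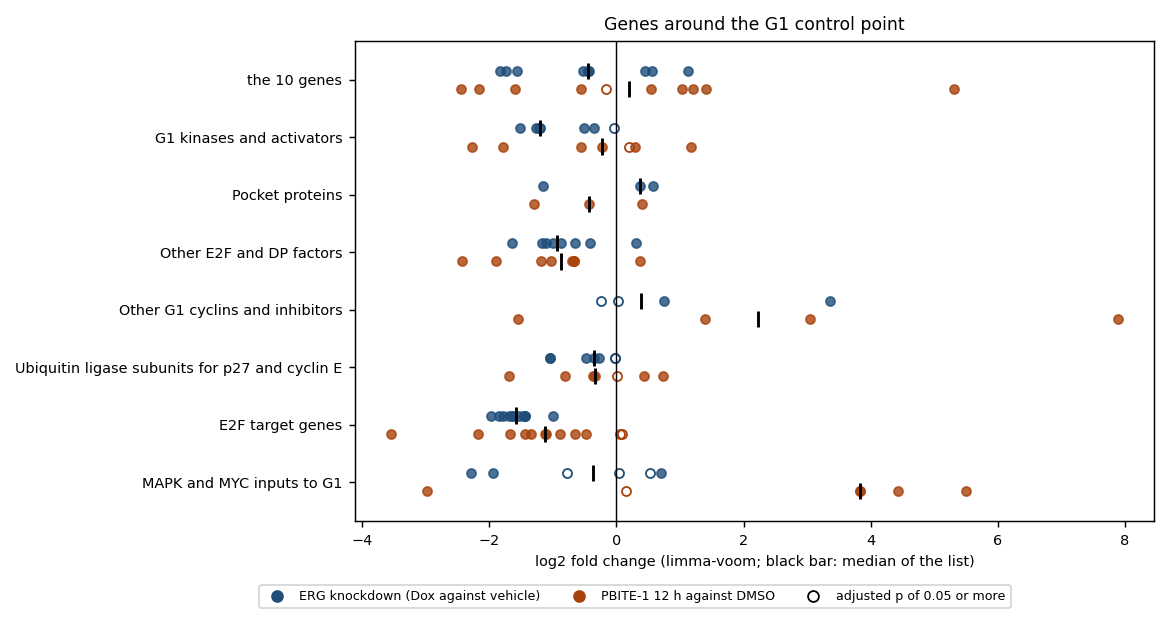
Log2 fold change (x axis, limma-voom) of the 10 genes and of 7 lists of genes around them (y axis), after Dox against vehicle and after 12 h of PBITE-1 against DMSO. Points are genes, open where the adjusted p was 0.05 or more, and black bars are medians; the 12 E2F target genes have medians of -1.58 and -1.12.

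For each of the 10 genes, the 2 genes with the most similar course over the 18 samples were found by Pearson r of log2 CPM among 11311 candidates with a mean count of at least 50. The samples come from 6 groups of replicates that share a treatment, so that r mainly describes the order of the group means, and no p is given. For CCNE2 these were RBL1 (0.984) and RRM1 (0.983), the genes of a pocket protein and of the large ribonucleotide reductase subunit. For E2F1 they were PSMD2 (0.987) and LIG1 (0.976), the latter a DNA ligase of replication, and for E2F2 TUBA1B (0.981) and BRIP1 (0.978), the latter a helicase of DNA repair. CDKN1B was most like PNPLA8 (0.992) and KDM4A (0.988), CDKN2B like AHNAK2 (0.991) and EPPK1 (0.990), and CDKN2D like EPS8 (0.991) and MYH9 (0.990). The nearest genes were H2BC4 (0.986) and IQCN (0.978) for CCND1, DESI2 (0.972) and EIF4EBP2 (0.972) for CCND3, CENPQ (0.962) and ZNF440 (0.943) for CCNE1, and DUSP2 (0.933) and RNF26 (0.923) for CDKN2C, the gene with the loosest match. Among the 10 genes themselves, r was 0.977 for CCNE2 and E2F2, 0.929 for CCNE2 and E2F1, and 0.919 for CCND3 and CDKN2D. It was 0.914 for CDKN1B and CDKN2B and 0.903 for E2F1 and E2F2.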

How the data were processed

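RNA-seq was performed on ribosomal RNA-depleted total RNA of 18 VCaP samples, grouped by the labels. The authors deposited whole-number counts per Ensembl gene, without normalization. The submitters' processing notes name STAR, featureCounts, and hg38, while the study's methods name Kallisto, so whether the counts are of aligned reads or estimates is not settled. The annotation and the use of strand are not given in the sources used here. The study calls the PBITE-1 and vehicle-treated VCaP samples biological replicates and says in general that its data points came from such replicates. It does not describe the VCaP-shERG samples by themselves, nor say whether any samples came from separate cultures. The p-values measure the spread between these samples.

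After filterByExpr over the 6 groups (14164 of 22034 genes, 64.3%), TMM scaling was followed by limma-voom with eBayes (R 4.3.3, edgeR 4.0.16, limma 3.58.1), with Benjamini-Hochberg adjustment over all genes tested. The 6 VCaP-shERG and the 12 parental samples were fitted separately. All 18 were fitted for the line comparison and the interaction. The rule of a log2 fold change beyond 1 follows the study. Pair ratios used counts plus 0.5 and a two-sided exact permutation test. Replicate libraries differed by a chi-square per degree of freedom of 1.70 to 5.04, and none was counted as a copy. On simulated counts, 200 of 200 genes changed by a log2 value of 1.5 among 14164 were recovered in each of the 8 comparisons, with 2 false calls for Dox against vehicle and up to 13 for PBITE-1 at 4 h. The changed genes were few, went up and down in equal number, and had higher counts than CDKN2B in its controls. All genes had the same simulated spread. Smaller changes, low counts, and a change in most genes were thus not tried.

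The 10 genes, the 7 lists around them, and the marker lists were chosen with earlier results of these data known. Named genes were the 10, ERG, in each list the called genes with the most negative and the most positive fold change after Dox and at 12 h, and the 2 most similar genes of each of the 10. CDK4, CDKN1A, CCND2, and the overlapping genes LTO1 and INTS8 were added after their values were seen. Promoters came from RefSeq. Other settings tried were DESeq2 1.42.0, the quasi-likelihood test of edgeR, other scalings, filters, fits, thresholds, a replicate block, and leaving out each sample.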

Additional observations from a re-analysis of the deposited data

Results flagged for a closer look

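CCND3 and CDKN2D differed between the treatments, each called lower after Dox and higher at 12 h of PBITE-1. The response at 12 h minus that after Dox was 1.42 on the log2 scale for CCND3 (SE 0.17, limma adjusted p = 3.23e-10) and 1.61 for CDKN2D (SE 0.17, limma adjusted p = 1.29e-11). For each gene the 3 Dox samples did not overlap with vehicle, nor did the 3 samples at 12 h with DMSO. Over all 18 samples the log2 CPM of CCND3 and CDKN2D had a Pearson r of 0.919. The line and the treatment differ together between the responses and cannot be told apart, and no label gives the time of Dox. The fall after Dox was not called on library size only, where the values were -0.17 for CCND3 and -0.18 for CDKN2D.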

How the results depend on the processing

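Of 1382 values of single genes under the alternatives, 1352 kept their direction and their side of the threshold, 10 lost a call, 9 gained one, and 11 turned direction, none of the last with a called value. With the study's fold rule, the counts of the 10 genes were 3 lower and 1 higher after Dox, 0 and 1 at 4 h, 0 and 4 at 8 h, 0 and 1 from 4 to 8 h, 3 and 0 from 8 to 12 h, 0 lower between the lines, and 0 lower in the difference between the treatments. After Dox, 4 were lower with upper-quartile scaling and on library size only, because CCND3, CCNE1, and CDKN2D were not called. In the difference between the treatments, 4 were lower with upper-quartile scaling and 5 on library size only, scalings that moved the median of all genes by -0.15 and -0.28. From 4 to 8 h, 2 genes were lower in a fit of only the groups compared and with sample quality weights, CDKN2C being added, and leaving out single samples gave 0 to 2 (0 without 4 h replicate 2, where CCNE2 was lost, and 2 without 4 h replicate 1, where CDKN2C was -0.27).

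Directions turned only around 0. E2F1 at 4 h ranged from -0.056 to 0.027 when single samples were left out (0.0089 without DMSO replicate 1), and its difference between the treatments from -0.14 to 0.070 (the highest without Dox replicate 1). CCND1 from 4 to 8 h was 0.0014 with at least 10 counts in every sample and -0.030 to 0.0081 when single samples were left out. Between the lines, CDKN1B ranged from -0.029 to 0.066 and CDKN2B from -0.44 to 0.21, the latter without vehicle replicate 3. After Dox, the log2 ratio of E2F1 to E2F2 changed by -0.010 to 0.30, the lowest without Dox replicate 1, and that of CDKN2C to CDKN2D by -0.035 to 0.035.

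Same-numbered samples deviated together weakly, if at all (r from -0.023 to 0.041 over 18 parental pairs and 0.008 to 0.021 over 3 shERG pairs). For different numbers, r was -0.045 to 0.049 over 36 parental pairs and -0.021 to 0.009 over 6 shERG pairs. Of 18 samples, 9 correlated best with their own number. That count was not set against the count that unrelated numbers would give, so it does not decide whether numbers mark pairs. With the replicate number as a block, 7 genes were lower and 3 higher after Dox and 4 lower and 5 higher at 12 h, and no call of the 10 genes changed. Depth limits CDKN2B most, which had at most 22 counts in any DMSO sample.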

Other observations

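The subunits of the ubiquitin ligases that mark p27 and G1 cyclins for degradation are a further layer of the same control. Of 7 such genes, 5 were lower and none was higher after Dox (35.3% and 35.1% of all genes), and 4 were lower and 2 higher at 12 h of PBITE-1 (39.4% and 39.4%). SKP2, which recognises p27, was the lowest after Dox (-1.05, SE 0.05) and also fell at 12 h (-0.80, SE 0.062). At 12 h the lowest was FBXO4 (-1.69, SE 0.20), an F-box gene linked to cyclin D1, and the highest was FBXW7 (0.73, SE 0.092), the F-box gene for cyclin E, which was lower after Dox (-0.28, SE 0.089).

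Of 7 genes that stand for MAPK and MYC input to G1, 6 were tested. After Dox, 2 were lower and 1 was higher (35.3% and 35.1% of all genes), and at 12 h of PBITE-1, 1 was lower and 4 were higher (39.4% and 39.4%). MYC, a driver of CCND and E2F genes, fell in both (-1.95, SE 0.036, and -2.97, SE 0.066). FOS, an immediate early gene and a part of AP-1, was the highest at 12 h (5.49, SE 0.32) and was not called after Dox, and JUN, its partner, was higher in both (0.70, SE 0.062, and 3.83, SE 0.13). DUSP6, a phosphatase of ERK, had 8 to 13 counts per vehicle sample and 0 to 6 after Dox, too few for its fold change to be sized.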
